A study of Mus musculus with 32 samples.

Results

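The genes described here are 9 members of the pyroptosis and necroptosis machinery, *Gsdmd*, *Gsdme*, *Casp1*, *Casp4*, *Casp8*, *Ripk3*, *Mlkl*, *Nlrp3* and *Il18*. They were taken by symbol from a table of 55103 genes, and all 9 passed the filter on low counts. *Gsdme* was chosen by its log2 fold changes, which differed between the beams in these same data, so its values are given as a description without a test, and the difference between the beams is given for every member without a p-value. The measurements are bulk RNA sequencing of 32 mouse tumours of KPC36, a murine pancreatic cancer line whose genotype the labels do not give. The 4 groups of 8 libraries were carbon-ion irradiated tumours, photon-irradiated tumours and, for each beam, a separate set of untreated control tumours. Collection was at days 4 and 7 after treatment per the design text, and the day of a library, the dose and the strain and age of the mice were not given in the sources used here. Library titles begin with D or M, which the labels do not explain, with D in 4 carbon-ion controls, 3 carbon-ion irradiated libraries and no photon library.

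Gasdermins are pore-forming proteins that are held inactive until a protease cuts them, after which the freed amino-terminal part opens pores in the plasma membrane and the cell dies by pyroptosis. Gasdermin D is cut by the inflammatory caspases, caspase-1 downstream of inflammasomes and caspase-11 (the mouse *Casp4* product) downstream of bacterial lipopolysaccharide, whereas gasdermin E is cut in cells that have entered apoptosis. Necroptosis runs through the kinase RIPK3 and the pseudokinase MLKL and is held in check by caspase-8. These proteins are controlled largely by cleavage, phosphorylation and assembly, none of which is measured by transcript levels.

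The libraries held 13891863 to 71645903 estimated counts. Levels are given in CPM, the count relative to the library total scaled by trimmed means, and differences as log2 fold changes from one edgeR quasi-likelihood fit of all 32 libraries. A gene was called at a Benjamini-Hochberg adjusted p under 0.05 over the 20474 genes tested. The labels give the cells as malignant. All 7 epithelial markers were detected in each group, with a summed level of 2562 to 5722 CPM over the libraries, and markers of macrophages, neutrophils, T cells and fibroblasts were detected in each group too. In such bulk tissue, fewer cells of a type and less RNA per cell cannot be told apart.

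The sequences upstream of the members were read from RefSeq for assembly GRCm38.p6, in which 8 of the 9 members matched by symbol, and each is the 250 bases before an annotated start, written 5′ to 3′ on the gene's strand. The bases that follow the start were found near the start of a GENCODE M21 transcript on the same strand for every window except those of *Mlkl* and *Il18*. The windows of *Gsdme* and *Casp8* lie within the gene spans given below, and so precede internal starts. The promoter of *Gsdme* is shown because this gene carries the largest difference between the beams relative to its standard error among the members, and those of *Casp1*, *Casp4* and *Nlrp3* because these genes had the 3 largest differences between the beams in the opposite direction. Capitals mark matches, on either strand, to the letters GGGCGG (a GC box) or to GGG and TTTCC with any pair of bases between them (a kappaB element). Also searched were GAAA and GAAA with any pair of bases between them (an interferon-stimulated response element) and TTC and GAA with any 3 bases between them (a gamma-activated sequence). No match of one motif overlapped a match of another in the windows shown.
Gsdme, chr6:50261770-50262019, minus strand: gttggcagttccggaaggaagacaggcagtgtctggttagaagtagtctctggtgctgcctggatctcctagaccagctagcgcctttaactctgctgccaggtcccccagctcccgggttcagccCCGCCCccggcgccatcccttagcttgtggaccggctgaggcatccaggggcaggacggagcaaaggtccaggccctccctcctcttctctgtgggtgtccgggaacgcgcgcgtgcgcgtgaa
Casp1, chr9:5298267-5298516, plus strand: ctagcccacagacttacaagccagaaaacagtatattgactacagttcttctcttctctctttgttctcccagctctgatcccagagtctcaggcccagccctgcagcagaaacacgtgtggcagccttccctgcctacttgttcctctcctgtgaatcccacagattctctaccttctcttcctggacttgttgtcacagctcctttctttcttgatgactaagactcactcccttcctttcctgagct
Casp4, chr9:5308599-5308848, plus strand: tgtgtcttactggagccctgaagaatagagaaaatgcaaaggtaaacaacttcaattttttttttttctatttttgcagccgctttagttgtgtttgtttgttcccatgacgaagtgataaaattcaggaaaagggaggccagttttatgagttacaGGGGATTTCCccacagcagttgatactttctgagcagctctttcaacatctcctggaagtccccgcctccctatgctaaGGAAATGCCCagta
Nlrp3, chr11:59541319-59541568, plus strand: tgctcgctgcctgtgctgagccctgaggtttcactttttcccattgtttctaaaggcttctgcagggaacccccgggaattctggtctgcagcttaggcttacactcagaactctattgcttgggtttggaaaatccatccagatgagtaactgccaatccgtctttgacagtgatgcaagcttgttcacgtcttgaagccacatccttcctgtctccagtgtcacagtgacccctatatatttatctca

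The *Gsdme* promoter was the most GC-rich of these, at 64% GC with 15 CpG dinucleotides, more than in 72.7% of the 32851 promoters of this length. It held 1 GC box, near the middle of the window, a motif found in 32.7% of promoters. The *Casp1* promoter had 49.2% GC, 1 CpG and no match to any of the 4 motifs, and the *Nlrp3* promoter shown had 48% GC, 4 CpG and no match. The other *Nlrp3* window, not shown, lay within the gene span and had 47.2% GC, 3 CpG and no match. The *Casp4* promoter shown had 41.6% GC and 3 CpG, and held 2 kappaB letter matches 93 and 14 bases before the start, a motif found in 1.41% of promoters. The other *Casp4* window, not shown, had 40.8% GC, 3 CpG and 2 kappaB matches 104 and 25 bases before its start. Of the other members, *Ripk3* held 1 GC box, and the windows of *Casp8*, *Mlkl* and *Il18* as RefSeq places them held no match. No member's window held the interferon-stimulated element, found in 2.98% of promoters, or the gamma-activated sequence, found in 7.02%. A match is a description of letters and says nothing about binding.

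The members spanned a wide range of expression. Per kilobase of the principal transcript and over all libraries, *Gsdmd* was highest at 35.7 CPM, followed by *Casp8* at 16.5 and *Gsdme* at 16.03. *Ripk3*, *Mlkl* and *Il18* lay close together at 8.60, 8.17 and 8.10 CPM per kilobase, and *Casp4*, *Casp1* and *Nlrp3* were lowest at 2.49, 2.15 and 1.79. Within groups, *Gsdme* was the least variable member, with a pooled standard deviation (SD) of 0.141 on the log2 CPM scale, against a median of 0.354 over all genes tested. *Gsdmd* at 0.174, *Casp8* at 0.179 and *Mlkl* at 0.229 were also below that median, whereas *Casp1* at 0.508, *Casp4* at 0.489, *Il18* at 0.469, *Ripk3* at 0.419 and *Nlrp3* at 0.417 were above it.

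**Figure D1:**
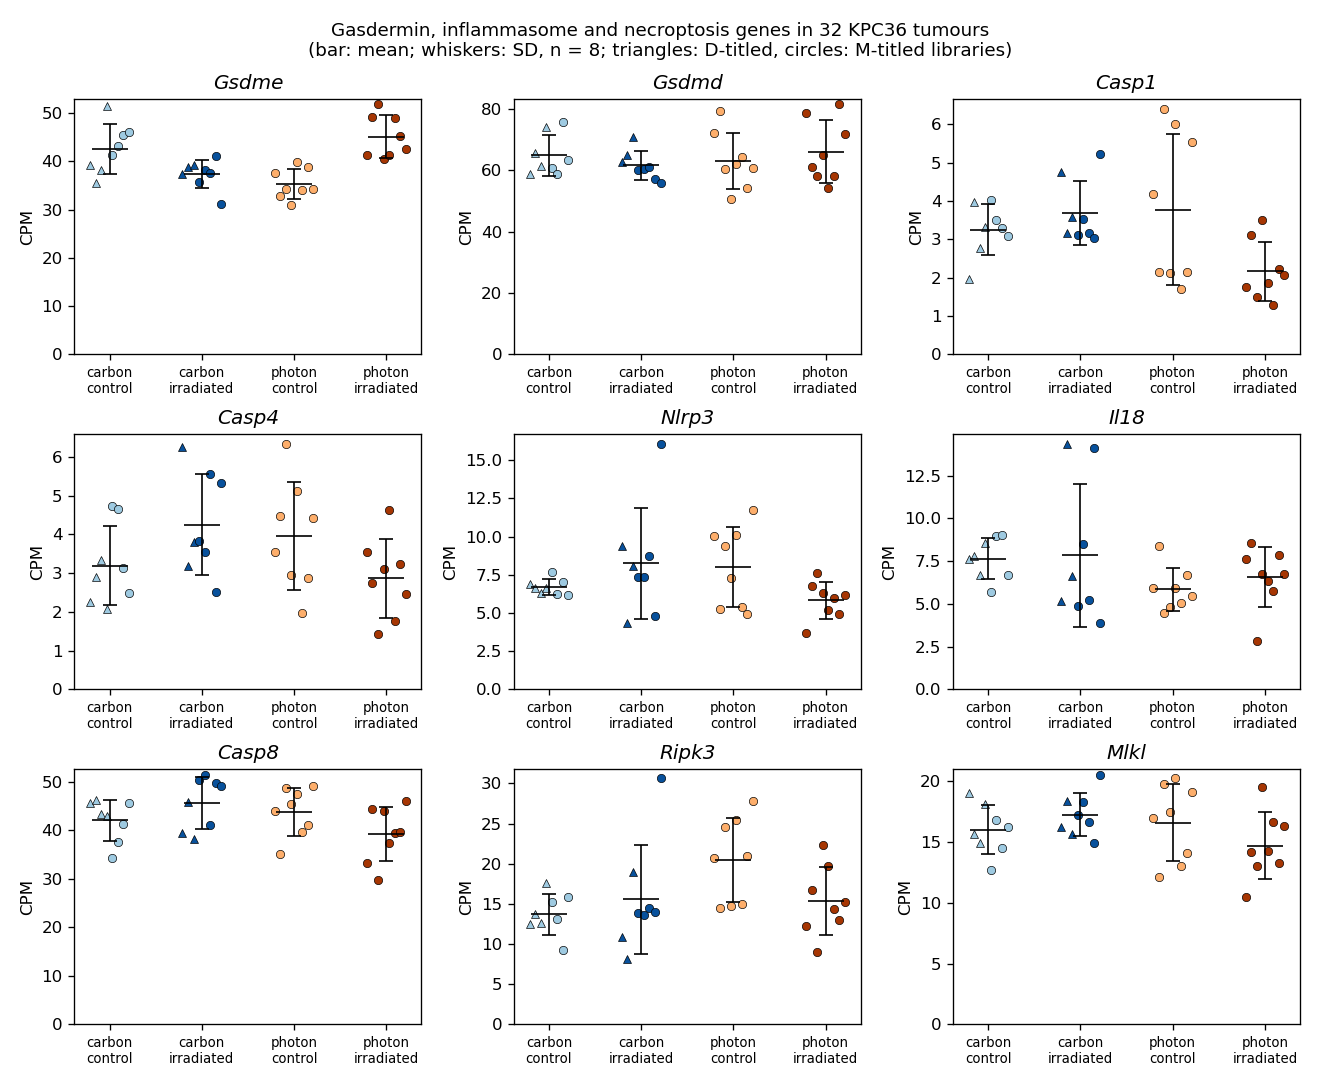
CPM of each member (vertical axis, from 0) in the 4 groups (horizontal axis), with 1 point per library, bars for the mean and whiskers for the SD of 8 libraries, and triangles for D-titled libraries. Photon-irradiated libraries lie at 40.5 to 51.8 CPM for *Gsdme*, above the 30.9 to 39.9 CPM of their controls.

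*Gsdme* encodes gasdermin E, which is cut during apoptosis, and lies on chr6:50188888-50263862 (minus strand, GENCODE M21 on GRCm38). In the photon arm the control libraries ranged from 30.9 to 39.9 CPM with a median of 34.3, and the irradiated libraries from 40.5 to 51.8 CPM with a median of 43.9. The ranges did not overlap, and the difference was 0.35 (standard error, SE, 0.075) on the log2 scale. The share of all genes tested whose ranges did not overlap was not counted. Of all genes tested, 3.81% were called in this comparison, which is part of the one that chose *Gsdme*, so nothing is read from it. The mean was 35.3 ± 3.13 CPM in the controls and 45.1 ± 4.39 CPM after photons (SD, n = 8 each).

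In the carbon-ion arm *Gsdme* lay on the other side. The control libraries ranged from 35.5 to 51.6 CPM with a median of 42.3, and the irradiated libraries from 31.1 to 41.1 CPM with a median of 37.9. All 8 irradiated libraries were below the control median, but the ranges overlapped, and the difference was -0.19 (SE 0.075). Means were 42.6 ± 5.15 and 37.4 ± 2.98 CPM (SD, n = 8 each). The carbon-ion less the photon effect was -0.54 (SE 0.106).

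The untreated groups differed in *Gsdme* as well. Carbon-ion controls were higher than photon controls by 0.27 (SE 0.075) on the log2 scale, with all 8 above the photon-control median, while carbon-ion irradiated tumours were lower than photon-irradiated ones by as much, at -0.27 (SE 0.075). The ordering of the group means was therefore photon controls, carbon-ion irradiated, carbon-ion controls and photon-irradiated tumours, from 35.3 to 45.1 CPM. Neighbours in this order lay 2.07, 5.20 and 2.55 CPM apart, and the first and the last of these gaps were smaller than the SD of either neighbouring group.

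Titles and neighbouring genes were examined beside the *Gsdme* values. In the carbon-ion arm, D-titled controls ranged from 35.5 to 51.6 CPM and D-titled irradiated libraries from 37.4 to 39.3, whereas M-titled controls ranged from 41.3 to 46.2 and M-titled irradiated libraries from 31.1 to 41.1, without overlap. All 8 photon-irradiated libraries carry title numbers of 95 and above, whereas photon controls carry 19 to 48 and M-titled carbon-ion libraries 1 to 35. The labels do not say what the numbers mark, and the photon differences of all genes cannot be told apart from this block of numbers. With M-titled libraries alone the carbon-ion difference was -0.24 and the photon difference 0.36. *Gsdme* overlaps *Pals2* (*Mpp6* in GENCODE M21) on the opposite strand by 10052 bases, with 0 bases of exon shared. *Pals2*, a scaffold protein of cell junctions, had a photon difference of 0.30 (SE 0.105, edgeR adjusted p = 0.0901) and a carbon-ion difference of 0.05 (SE 0.105, edgeR adjusted p = 0.997). It was higher in carbon-ion than in photon controls, by 0.33 (SE 0.105, edgeR adjusted p = 0.0466). The handling of strand in the counting was not given in the sources used here, and the part of *Pals2* reads in the *Gsdme* values was not tested.

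The genes whose levels followed *Gsdme* most closely over the 32 libraries were *Dnajb14*, *Pds5a*, *Fam185a*, *Rassf6* and *Fmr1*, with Pearson correlations of log2 CPM of 0.77, 0.76, 0.73, 0.72 and 0.71 among 11500 genes ranked. The libraries share the 4 group levels, and after subtracting group means the same correlations were 0.64, 0.63, 0.54, 0.63 and 0.60. Spearman's correlations of the 5 genes lay between 0.72 and 0.81. The lowest correlations were those of *Ccdc80* at -0.76, *Grn* at -0.75 and *Susd6* at -0.73, and -0.62, -0.67 and -0.64 after subtracting group means.

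*Gsdmd*, which encodes the gasdermin cut by inflammatory caspases and lies on chr15:75862327-75867408, lay at nearly the same level in every group. Group medians were 62.5 CPM in carbon-ion controls, 60.9 after carbon ions, 61.5 in photon controls and 63.1 after photons, with libraries between 50.8 and 81.7 CPM throughout. The differences were -0.07 (SE 0.089) after carbon ions and 0.07 (SE 0.089) after photons, with edgeR adjusted p = 0.997 and 0.697. Each of these differences was smaller than the within-group SD of 0.174. The 8 other gasdermin-family genes in the list (*Gsdma*, *Gsdma2*, *Gsdma3*, *Gsdmc*, *Gsdmc2*, *Gsdmc3*, *Gsdmc4* and *Pjvk*) did not pass the filter. Their highest level in any library was 0.326 CPM, and 1 of them, *Gsdma3*, was at 0 in all 32 libraries, where 3 counts are worth 0.0419 to 0.216 CPM.

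Among the 8 members other than *Gsdme*, 0 were called after carbon ions, where 0% of all genes were called, and 0 after photons, where 3.81% were. At an unadjusted p under 0.05 the counts were 0 of 8 after carbon ions (5.75% of all genes) and 3 of 8 after photons (21.5%). DESeq2 called 0 of 8 and 1 of 8, against 0.153% and 7.57% of the genes to which it gave an adjusted p. The direction of the estimates differed between the arms. After carbon ions 7 of the 8 were above 0, with a median of 0.15 against 0.01 over all genes, and after photons 6 of the 8 were below 0, with a median of -0.29 against 0.00. With upper-quartile scaling *Il18* moved below 0 after carbon ions, leaving 6 of 8 above, and the photon split remained at 6 below.

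**Figure D2:**
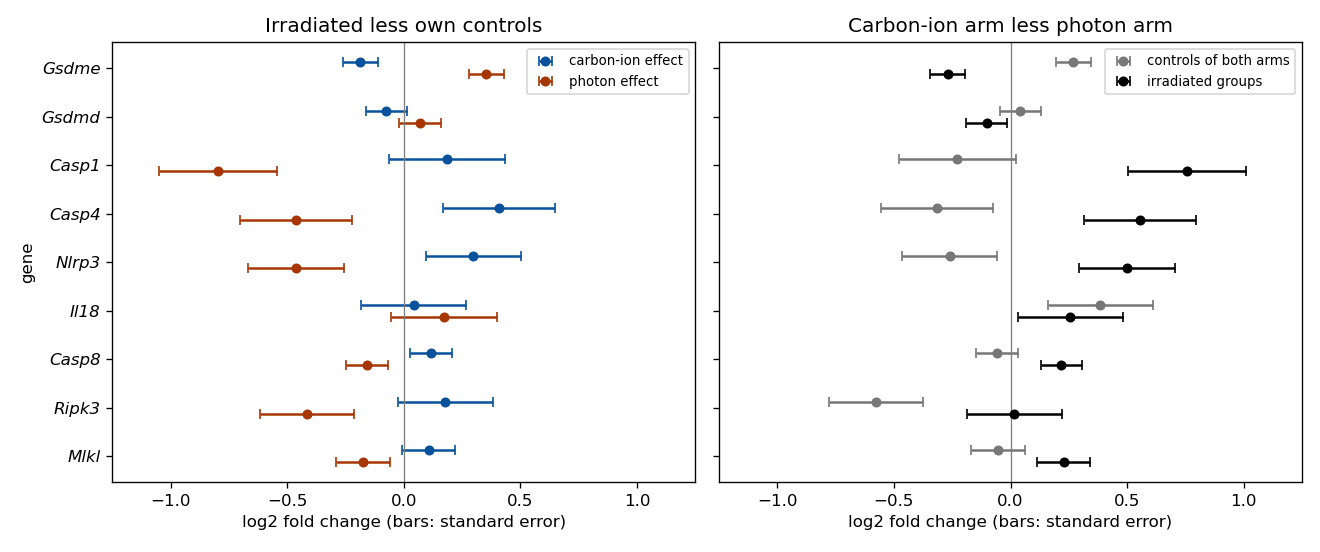
Log2 fold change (horizontal axis) of each member (vertical axis), with bars for the standard error, for irradiated less control tumours of each arm on the left and for the carbon-ion less the photon arm on the right. *Gsdme* lies at -0.19 after carbon ions and 0.35 after photons, and *Casp1* at 0.19 and -0.80.

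*Casp1* encodes caspase-1, the protease that inflammasomes activate and that matures interleukin-1 beta and interleukin-18 as well as cutting gasdermin D. It lies on chr9:5298517-5307265. Photon controls ranged from 1.70 to 6.40 CPM with a median of 3.17, and photon-irradiated libraries from 1.29 to 3.51 with a median of 1.97. Of the 8 irradiated libraries 7 were below the control median, the ranges overlapped, and the difference of -0.80 (SE 0.253) had an edgeR adjusted p = 0.0651. DESeq2 called it at an adjusted p = 0.031, and without photon-control replicate 2, 4 or 6 or photon-irradiated replicate 4 edgeR gave adjusted p = 0.0301, 0.0404, 0.032 and 0.0346. The other 12 such fits did not call it, and the range over all 16 was -0.92 to -0.64 with edgeR adjusted p up to 0.173.

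Photon-control libraries fell into a high and a low set for *Casp1*. Replicates 1, 3, 5 and 8 were at 4.17, 6.40, 6.01 and 5.54 CPM, and replicates 2, 4, 6 and 7 at 2.14, 2.11, 1.70 and 2.16 CPM. The 4 libraries with high *Casp1* also had the 4 highest summed levels of the 9 macrophage and monocyte markers, 870 to 1040 CPM against 596 to 763 CPM in the others. They were the 4 highest as well in the general leukocyte marker *Ptprc* (75.7 to 100.1 CPM), the T cell sum (10.02 to 13.78 CPM) and the dendritic cell sum (47.99 to 62.96 CPM). The neutrophil sum did not follow this split, with replicate 3 at 97.18 CPM and replicate 4 at 144.6 CPM. After photons the macrophage sum ranged from 393 to 758 CPM, and 2 of the 9 macrophage markers and 3 of the 6 neutrophil markers fell, where 3.81% of all genes were called in either direction, with medians of -0.37 and -0.92 over the lists. Medians of other lists were -1.28 over 7 T cell markers (2 lower and 1 higher), -0.74 over 4 dendritic cell markers (1 lower), -0.52 over 6 fibroblast markers (1 lower), -0.44 over 4 endothelial markers (1 lower), -3.12 over 6 skeletal muscle markers (0 called) and -1.71 over 3 adipocyte markers (0 called). No marker of these lists was at 0 in all libraries of a group, and the part of these cells in the *Casp1* values was not tested.

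After carbon ions *Casp1* was not lower. The controls ranged from 1.98 to 4.04 CPM with a median of 3.30, the irradiated libraries from 3.04 to 5.24 with a median of 3.35, and the difference was 0.19 (SE 0.25, edgeR adjusted p = 0.997), or 0.07 with M-titled libraries alone. The irradiated groups of both arms differed by 0.76 (SE 0.253), with all 8 carbon-ion libraries above the photon median, at an edgeR adjusted p = 0.0692 and a DESeq2 adjusted p = 0.0315. The carbon-ion less the photon effect was 0.98 (SE 0.356).

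*Casp4*, whose mouse product caspase-11 senses cytosolic lipopolysaccharide, lies 1563 bases from *Casp1*, on chr9:5308828-5336783, and had estimates of the same signs. It ranged from 1.96 to 6.33 CPM in photon controls (median 3.98) and from 1.44 to 4.62 after photons (median 2.93), a difference of -0.46 (SE 0.24, edgeR adjusted p = 0.26) with 7 of 8 irradiated libraries below the control median. After carbon ions the range was 2.50 to 6.25 CPM (median 3.81) against 2.06 to 4.74 in controls (median 3.02), a difference of 0.41 (SE 0.239, edgeR adjusted p = 0.939) with 7 of 8 above, and 0.15 with M-titled libraries alone. The groups overlapped in both arms, and the effects differed by 0.87 (SE 0.338). After subtracting group means, *Casp1* and *Casp4* had a correlation of 0.62 over the 32 libraries.

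*Nlrp3*, the sensor of the NLRP3 inflammasome, lies on chr11:59541568-59566956. Photon controls ranged from 4.93 to 11.7 CPM with a median of 8.34, and photon-irradiated libraries from 3.72 to 7.64 with a median of 6.06. All 8 irradiated libraries were below the control median, with overlapping ranges, and the difference was -0.46 (SE 0.205, edgeR adjusted p = 0.181). Photon-control replicates 1, 3, 5 and 8, which were high in *Casp1*, held the 4 highest *Nlrp3* levels of their group, 9.40 to 11.7 CPM.

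After carbon ions *Nlrp3* ranged from 4.33 to 16.1 CPM with a median of 7.71, against 6.15 to 7.68 CPM and a median of 6.63 in the controls. The groups overlapped, the spread was wider after irradiation (SD 3.62 against 0.501 CPM), and the difference was 0.30 (SE 0.204, edgeR adjusted p = 0.996), or 0.09 without replicate 8. The highest library, replicate 8, was also the highest of its group in *Ripk3* (30.6 CPM), *Casp1* (5.24 CPM), the macrophage sum (1105 CPM), the neutrophil sum (299 CPM) and the summed interferon-response genes (408 CPM). It was the highest as well in the fibroblast sum (20810 CPM), the NK cell sum (2.079 CPM) and the summed p53 targets (476.5 CPM), and the lowest in the epithelial sum (3145 CPM). Whether these levels account for its *Nlrp3* level was not tested.

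*Il18* encodes the precursor of interleukin-18, a cytokine that caspase-1 cleaves and that leaves the cell through gasdermin pores. It lies on chr9:50554827-50581840. Carbon-ion controls ranged from 5.69 to 9.05 CPM (median 7.70) and irradiated libraries from 3.90 to 14.3 CPM (median 5.92), a difference of 0.04 (SE 0.225, edgeR adjusted p = 0.997). The irradiated mean of 7.84 CPM was above the irradiated median, since replicates 2 and 7 were at 14.3 and 14.1 CPM, and leaving out either one in turn gave a difference of -0.14. In the photon arm the ranges were 4.50 to 8.36 CPM (median 5.69) in controls and 2.81 to 8.53 CPM (median 6.75) after irradiation, a difference of 0.17 (SE 0.227, edgeR adjusted p = 0.71). *Il18* ran against *Nlrp3* within groups, with a correlation of -0.67 over the 32 libraries after subtracting group means.

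*Casp8* encodes the initiator caspase of death receptors, which also blocks necroptosis by cutting the RIP kinases, and lies on chr1:58795374-58847503. Photon controls ranged from 35.04 to 49.1 CPM (median 44.7) and photon-irradiated libraries from 29.8 to 45.97 CPM (median 39.6), a difference of -0.16 (SE 0.089, edgeR adjusted p = 0.312). Carbon-ion controls ranged from 34.2 to 46.2 CPM (median 43.2) and irradiated libraries from 38.3 to 51.5 CPM (median 47.4), a difference of 0.12 (SE 0.089, edgeR adjusted p = 0.996). The groups overlapped in both arms and each difference was smaller than the within-group SD of 0.179. The effects differed by 0.28 (SE 0.126), and by 0.46 with M-titled libraries alone.

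*Ripk3*, the kinase that starts necroptosis by phosphorylating MLKL, lies on chr14:55784995-55788865 and was highest in photon controls. These ranged from 14.5 to 27.8 CPM (median 20.8), and photon-irradiated libraries from 9.01 to 22.4 CPM (median 14.8), a difference of -0.42 (SE 0.202, edgeR adjusted p = 0.226) with 7 of 8 below the control median. Carbon-ion controls were lower than photon controls at 9.23 to 17.6 CPM (median 13.4), with all 8 below the photon-control median. That difference was -0.58 (SE 0.202) with an edgeR adjusted p = 0.0666. It was called by DESeq2 (adjusted p = 0.0453) and by edgeR fitted to the control groups alone (adjusted p = 0.0227). The other 5 of 7 settings did not call it, with an edgeR adjusted p up to 0.244, nor did any of the 16 fits with a library left out, with 0.0508 to 0.154.

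Carbon-ion irradiated libraries ranged from 8.11 to 30.6 CPM of *Ripk3* (median 13.9), a difference from their controls of 0.18 (SE 0.202, edgeR adjusted p = 0.997) that was -0.03 without replicate 8. *Mlkl*, whose product forms the necroptotic membrane lesions and which lies on chr8:111311797-111338177, varied less. It ranged from 12.1 to 20.3 CPM in photon controls (median 17.2) and from 10.47 to 19.5 after photons (median 14.2), a difference of -0.17 (SE 0.115, edgeR adjusted p = 0.396). In the carbon-ion arm controls ranged from 12.7 to 19.02 CPM (median 15.99) and irradiated libraries from 14.96 to 20.5 (median 16.9), a difference of 0.11 (SE 0.115, edgeR adjusted p = 0.997). With M-titled libraries alone the carbon-ion differences were 0.23 in *Mlkl*, 0.38 in *Ripk3* and 0.31 in *Casp8*. The groups overlapped, and *Mlkl* and *Casp8* formed the member pair with the highest correlation over the 32 libraries after subtracting group means, 0.69.

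The carbon-ion less the photon effect, estimated per member from groups that share no libraries, was above 0 in 6 of the 9, namely *Casp1* (0.98), *Casp4* (0.87), *Nlrp3* (0.76), *Ripk3* (0.59), *Mlkl* (0.28) and *Casp8* (0.28), and below 0 in *Gsdme* (-0.54), *Gsdmd* (-0.14) and *Il18* (-0.13). The 6 and the 3 were the same counts under every alternative setting run. The median was 0.28 over the 9 and 0.44 over the 8 without *Gsdme*, against 0.02 over all genes. The choice of the members used this contrast, and every setting used the same libraries, so nothing is read from these counts and medians.

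In the separate untreated tumours of each arm, 0 of the 8 other members were called between the control groups, where 9.14% of all genes were called, and 1 of 8 had an unadjusted p under 0.05 against 23.1% of all genes, while DESeq2 called 1 of 8, *Ripk3*, against 10.8% of all genes. Between the irradiated groups 0 of 8 were called, where 5.08% of all genes were, and 4 of 8 had an unadjusted p under 0.05 against 25.2%, while DESeq2 called 1 of 8, *Casp1*, against 10.5%. The estimates of 7 of the 8, all except *Gsdmd*, were above 0 for carbon-ion less photon-irradiated tumours. For *Ripk3* (0.02, and -0.04 under upper-quartile scaling) and *Il18* (0.26) only 2 and 3 of the 8 carbon-ion libraries lay above the photon median, and without carbon-ion irradiated replicate 2 or 7 the *Il18* difference was 0.08. The macrophage markers were higher after carbon ions than after photons in 5 of 9 by the same test, with sums of 668 to 1105 CPM against 393 to 758 CPM. So were 3 of 6 neutrophil markers, with sums of 81.5 to 299 against 52.9 to 154 CPM, and 1 of 4 dendritic cell markers, with medians of 0.90 and 0.39. Of 7 p53 targets 3 were higher too, with all 7 estimates above 0. All 6 skeletal muscle estimates were above 0 (median 3.16), with 0 called. The part of these cells, or of the p53 response, in the values of the members and of the other pathway genes was not tested. Correlations within groups over the 32 libraries were 0.60 for *Casp1* with *Nlrp3*, 0.58 for *Casp1* with *Ripk3* and 0.55 for *Ripk3* with *Nlrp3*, whereas those of *Gsdme* with the other members lay between -0.37 and 0.19.

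**Figure D3:**
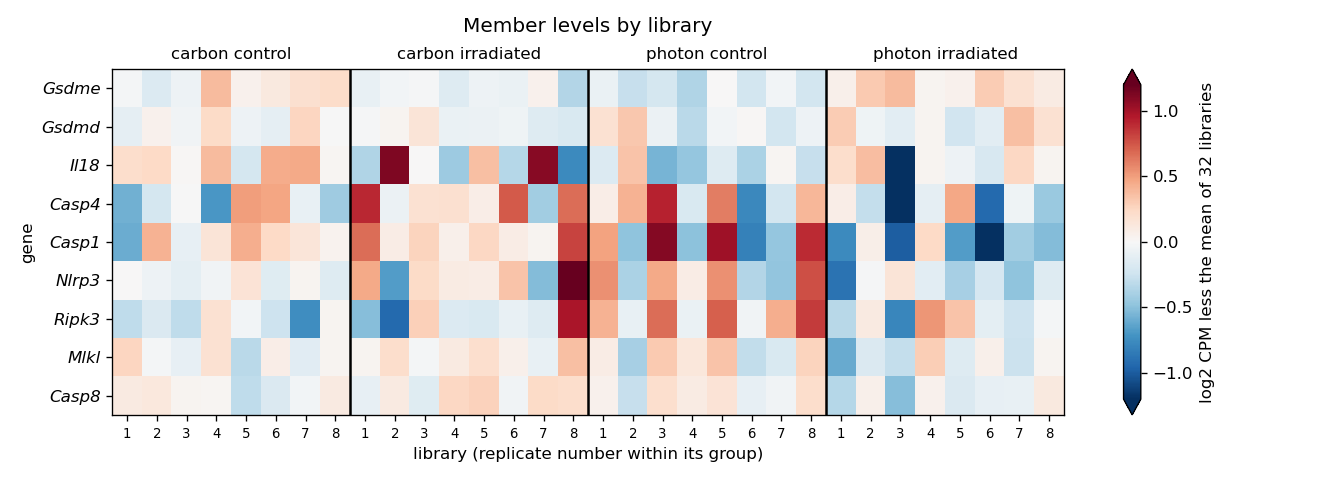
Log2 CPM of each member (rows) less its mean over the 32 libraries, by library (columns, numbered within each group), with red above and blue below that mean. *Gsdme* is red in most photon-irradiated and blue in most photon-control libraries, and *Casp1*, *Nlrp3* and *Ripk3* are red together in photon-control replicates 1, 3, 5 and 8 and in carbon-ion irradiated replicate 8.

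Other genes of these pathways were taken from a list of 64, with 63 present under their symbol and 54 past the filter. After carbon ions edgeR called 0 of 54, as it did 0 of all 20474 genes, with 8 of 54 at an unadjusted p under 0.05 against 5.75% of all genes. DESeq2 called 2 of them, and 29 of the 19001 genes to which it gave an adjusted p. After photons 5 of 54 were called, 9.26% against 3.81% of all genes, with 3 higher and 2 lower. The median over the 54 was 0.09 after carbon ions, with 39 above 0, and -0.05 after photons, with 24 above 0, or 37 and 27 above 0 under upper-quartile scaling. Of all genes tested, 51.5% were above 0 after carbon ions, 49.9% after photons and 51.1% for carbon-ion less photon-irradiated tumours.

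The inhibitors and regulators of caspases held 2 of the 3 genes that rose after photons. *Cyld*, a deubiquitinase that acts on RIPK1, rose from 70.2 ± 5.91 to 83.9 ± 5.52 CPM (SD, n = 8 each), a difference of 0.26 (SE 0.057, edgeR adjusted p = 0.0135). *Xiap*, which encodes an inhibitor of apoptosis that binds caspases, rose from 146.8 ± 18.1 to 174.5 ± 8.22 CPM (0.25, SE 0.074, edgeR adjusted p = 0.0495), a call kept without 1 of the 16 libraries in turn and lost without each of the other 15. The third was *Txnip*, which encodes a thioredoxin-binding protein linked to NLRP3 activation, from 217.4 ± 39.5 to 289.8 ± 61.1 CPM (0.42, SE 0.119, edgeR adjusted p = 0.0434), kept in 5 of 16. Of the 7 alternative settings, 3 called *Xiap* and 4 called *Txnip*. With no filter neither was called (edgeR adjusted p = 0.102 and 0.0756). All 3 genes were also higher in carbon-ion controls than in photon controls, by 0.21, 0.36 and 0.39 with edgeR adjusted p = 0.0168, 0.00248 and 0.0333. These control calls were kept in 15, 16 and 7 of 16 fits with a library left out.

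*Il33* and *Fadd* fell after photons. *Il33*, an alarmin of the interleukin-1 family released from damaged cells, went from 204.7 ± 44.6 to 125.6 ± 26.8 CPM (-0.70, SE 0.162, edgeR adjusted p = 0.0156), and the photon controls stood above the carbon-ion controls (110.9 ± 27.4 CPM) as well (carbon-ion less photon controls -0.88, edgeR adjusted p = 0.00114). *Fadd*, the adaptor that brings caspase-8 to death receptors, went from 12.9 ± 1.52 to 9.98 ± 1.01 CPM (-0.36, SE 0.097, edgeR adjusted p = 0.0321), a call kept in 5 of 16 libraries left out in turn. With no filter *Fadd* was not called (edgeR adjusted p = 0.0779). The summed fibroblast markers, another part of the tissue, ranged from 12490 to 26600 CPM in photon controls and from 9065 to 16800 CPM after photons, and their part in *Il33* was not tested.

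Of the inflammasome sensors and adaptors, 11 of the 14 tested were below 0 after photons, with *Txnip* the only one called, and 8 were above 0 after carbon ions with 0 called. *Pycard*, the adaptor ASC that links sensors to caspase-1, had a difference of -0.29 (SE 0.236, edgeR adjusted p = 0.497) after photons and 0.27 (SE 0.235, edgeR adjusted p = 0.997) after carbon ions, or 0.05 with M-titled libraries alone. For carbon-ion less photon-irradiated tumours 13 of the 14 estimates were above 0 (12 under upper-quartile scaling) and 2 of 14 passed the test, where 5.08% of all genes did. These were *Aim2*, the sensor of cytosolic DNA (4.67 ± 1.36 against 1.85 ± 0.506 CPM, 1.34, edgeR adjusted p = 0.013), and *Nlrp1a*, a sensor of the NLRP1 type (1.94 ± 0.589 against 1.17 ± 0.349 CPM, 0.71, edgeR adjusted p = 0.0353). The *Aim2* call was kept in all 16 fits with a library left out and that of *Nlrp1a* in 8 of 16. *Aim2* was higher in carbon-ion controls than in photon controls too, at 5.09 ± 1.40 against 2.49 ± 1.06 CPM (1.03, edgeR adjusted p = 0.00805), as was *Nlrc4*, which encodes the adaptor that NAIP sensors recruit (0.27, edgeR adjusted p = 0.039), a call kept in 6 of 16 fits with a library left out.

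The interleukin-1 family and its receptors were below 0 after photons in 6 of 8, with *Il33* the 1 called, and above 0 after carbon ions in 6 of 8 with 0 called. *Il1b*, which encodes the other cytokine that caspase-1 matures, had medians of 17.8 CPM in photon controls and 17.4 after photons, and means of 25.5 ± 14.3 and 16.2 ± 3.99 CPM, a difference of -0.65 (SE 0.224, edgeR adjusted p = 0.0844) with control replicate 8 at 56.9 CPM. Without that library it was -0.38 (edgeR adjusted p = 0.301), and without photon-control replicate 2 the edgeR adjusted p was 0.0478. Its carbon-ion difference was -0.18 (SE 0.223, edgeR adjusted p = 0.997). For carbon-ion less photon-irradiated tumours all 8 estimates were above 0, also under upper-quartile scaling, and 2 of 8 passed the test, against 5.08% of all genes. They were *Il1rn*, the interleukin-1 receptor antagonist (48.02 to 120.6 against 21.8 to 50.98 CPM, 0.89, edgeR adjusted p = 0.0149), and *Il18r1*, a chain of the interleukin-18 receptor (10.1 ± 1.73 against 6.11 ± 2.38 CPM, 0.73, edgeR adjusted p = 0.0468). The *Il1rn* call was kept in all 16 fits with a library left out and that of *Il18r1* in 4 of 16. *Il1a* was higher in carbon-ion than in photon controls (0.88, edgeR adjusted p = 0.0466), a call kept in 7 of 16 such fits.

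In the necrosome and its inputs 10 of 12 genes were above 0 after carbon ions with 0 called, and 8 of 12 after photons, where *Fadd* was the 1 called. *Ripk1*, the kinase that recruits RIPK3, had differences of 0.08 (SE 0.066) and 0.06 (SE 0.066) with edgeR adjusted p = 0.997 and 0.627. *Zbp1*, a sensor of Z-form nucleic acid that activates RIPK3, ranged from 2.04 to 5.79 CPM in carbon-ion controls and from 2.31 to 26.5 CPM after carbon ions, a difference of 1.29 (SE 0.428, edgeR adjusted p = 0.521) that was 0.76 without irradiated replicate 8. In the photon arm it ranged from 2.04 to 11.6 and from 2.21 to 16.2 CPM (0.29, SE 0.421, edgeR adjusted p = 0.736), and -0.11 without photon-irradiated replicate 4. *Zbp1* was highest in the irradiated library with the highest summed interferon-response genes in each arm, at 408 and 312 CPM of these genes. Between the irradiated groups *Tnf*, a ligand that starts necroptosis, was higher after carbon ions (5.58 ± 1.51 against 3.54 ± 0.742 CPM, 0.65, edgeR adjusted p = 0.0325, kept in 12 of 16 fits with a library left out), and between the controls *Tradd* and *Pgam5* were higher in the carbon-ion arm (0.25 and 0.38, edgeR adjusted p = 0.0469 and 0.00452), calls kept in 3 and 16 of 16 such fits.

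The interferon-induced regulators of the inflammasome were above 0 after carbon ions in 6 of 6, with a median of 0.36, and after photons in 4 of 6, with a median of 0.15, and edgeR called 0 in either arm. *Gbp2* and *Gbp3*, guanylate-binding proteins, were called by DESeq2 after carbon ions (adjusted p = 0.0303 for *Gbp2*, with *Gbp3* just under the threshold) and after photons (adjusted p = 0.0322 and 0.0346). *Gbp2* went from 9.54 ± 2.41 to 17.3 ± 4.88 CPM with carbon ions (0.86, SE 0.21, edgeR adjusted p = 0.314), with all 8 irradiated libraries above the control median. *Ninj1*, whose product ruptures the membrane after gasdermin pores have formed, had differences of 0.20 after carbon ions and 0.00 after photons (edgeR adjusted p = 0.864 and 0.991). For carbon-ion less photon-irradiated tumours DESeq2 called *Ninj1* (0.304, adjusted p = 0.0288) and edgeR did not.

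In the controls of both arms 9 of the 54 genes were called, 16.7% against 9.14% of all genes, with 8 higher in the carbon-ion arm and *Il33* lower. In the same comparison 2 of 6 fibroblast markers were lower in the carbon-ion arm, with all 6 estimates below 0 and a median of -0.60. Of 7 epithelial markers 1 was higher, with 6 estimates above 0, and of 4 endothelial markers 0 were called, with all 4 below 0 and a median of -0.47. The part of these cells in the control differences was not tested. D titles occur in the carbon-ion arm alone, and with the title letter as a term 4 of these calls were lost, *Nlrc4*, *Txnip*, *Il1a* and *Tradd* (edgeR adjusted p = 0.117, 0.0669, 0.086 and 0.163). With M-titled libraries alone these 4 and *Cyld* were not called (edgeR adjusted p = 0.219, 0.111, 0.235, 0.295 and 0.0789). The same genes were not called with no filter either (edgeR adjusted p = 0.0782, 0.0624, 0.0694, 0.119 and 0.0572). Between the irradiated groups 5 of 54 were called, 9.26% against 5.08%, all higher after carbon ions, and 49 of 54 estimates were above 0 (43 under upper-quartile scaling), against 51.1% of all genes. With the title letter as a term *Nlrp1a*, *Il18r1* and *Tnf* were not called (edgeR adjusted p = 0.0592, 0.0767 and 0.0591), which left 2 of 54. They were also not called with no filter (0.0757, 0.0785 and 0.0628) or with only the irradiated groups fitted (0.104, 0.0791 and 0.0857), and neither was *Il1rn* in the latter (0.0503). Under upper-quartile scaling *Nlrp1a* and *Il18r1* were not called (0.0514 and 0.0684), and with M-titled libraries alone *Il18r1* was not (0.0609). At an unadjusted p under 0.05 there were 10 of 54 between the controls against 23.1% of all genes, 14 of 54 between the irradiated groups against 25.2%, and 14 of 54 after photons against 21.5%. These comparisons set the arms against each other directly, so that the beam and other differences between the arms cannot be told apart. Leaving out photon-control replicate 3 brought the count after photons to 0, and leaving out replicate 2 brought it to 9.

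**Figure D4:**
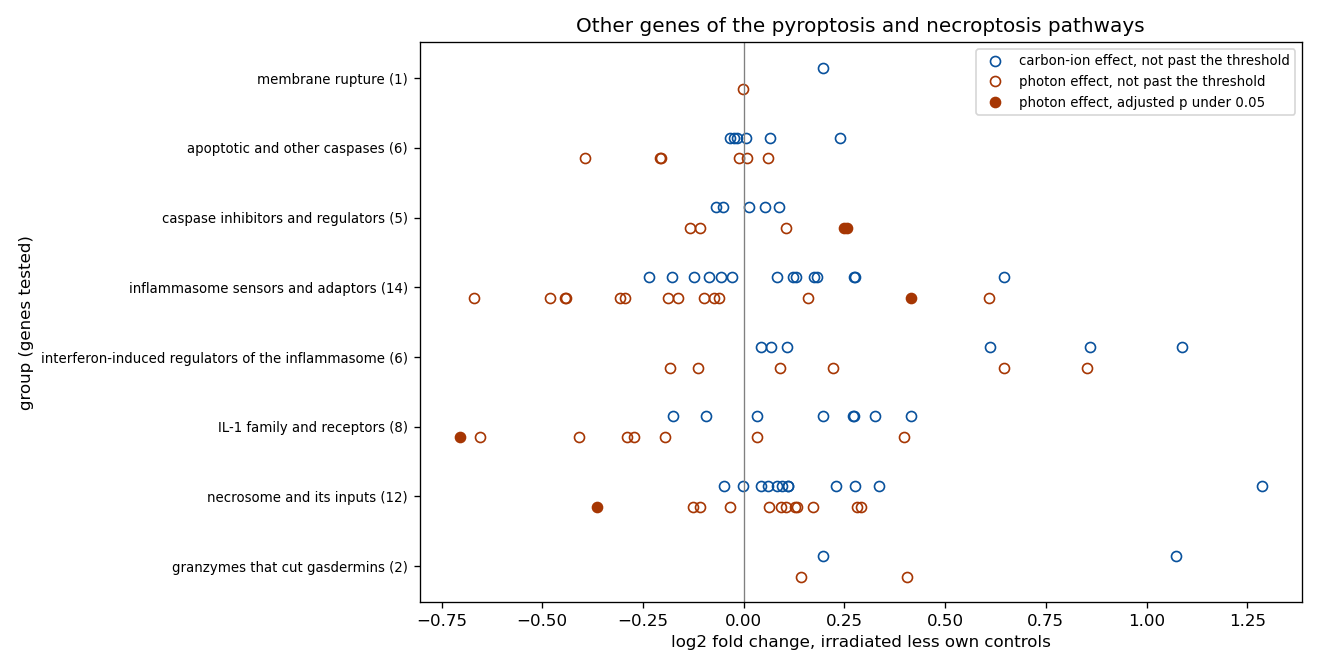
Log2 fold change of irradiated less control tumours (horizontal axis) for the 54 other pathway genes tested, by group of genes (vertical axis, number tested in brackets), with filled points for an edgeR adjusted p under 0.05. The 5 filled points are photon effects, *Cyld*, *Xiap* and *Txnip* above 0 and *Fadd* and *Il33* below 0, and carbon-ion effects have none.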

How the data were processed

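Tumour RNA was extracted from tissue kept in RNAlater and made into stranded mRNA libraries, per the labels' protocols. The authors deposited a table of estimated counts per gene symbol. FastQC 0.12.0, Trimmomatic 0.32, RSEM 1.3.3 and build mm10 are named, without role or order, per the submitters' processing notes. Of 853648 values above 0, 4 were whole (within 1e-06), and rounding them to whole numbers for the tests moved a library total by 0.00403% or less. The values may therefore be rescaled and not plain estimated counts. The sources used here do not say, and if so, the library totals, the floor of 3 counts and the count model apply to rescaled values.

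The counts were analysed with edgeR 4.0.16 in R 4.3.3. The filterByExpr function (minimum count 10) left 20474 genes. Libraries were scaled by the trimmed mean of M values (TMM), and the genes were fitted in 1 quasi-likelihood model with a coefficient per group. Standard errors were derived from the F statistic, and Benjamini-Hochberg adjustment ran over all genes tested. CPM use scaled library totals, and log2 CPM a prior count of 2. The members and lists were chosen with earlier results of these data known. The text describes all 9 members, names the listed pathway genes that passed the test in a contrast and always *Ripk1*, *Zbp1*, *Pycard* and *Il1b*, and names the 5 genes most and the 3 least correlated with *Gsdme* among genes with a settled name and a mean log2 CPM of 2 or more. *Gbp2*, *Gbp3* and *Ninj1* were named after their values were seen. Some listed genes are not reported here by name. Replicate numbers follow the order of deposition and pair nothing. The labels do not say whether libraries of a group came from separate mice, so p-values measure the spread between these samples.

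In data simulated on the photon comparison with 20253 genes, 64% of 100 genes changed 1.5-fold and 93% of 100 changed 2-fold were recovered, and 4.85% of the calls were false. The changed genes were drawn from those with a mean log2 CPM of 2 or more. *Casp1* (1.605) and *Casp4* (1.769) lie below that level, so the recovery does not cover them or other genes as low. Alternatives were DESeq2 1.42.0, other scalings, no filter, fits of the groups compared alone, the title letter as a term, M-titled libraries alone and each library left out in turn. Coordinates of genes are those of GENCODE M21.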

Additional observations from a re-analysis of the deposited data

Results flagged for a closer look

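Within each of 108 groups of 8 libraries (27 genes in 4 groups), the highest or lowest library was set against its neighbour by Dixon's rule, which chance alone meets in about 1 of 20 groups, and 11 values stood apart. Among the members this was *Nlrp3* in carbon-ion irradiated replicate 8 (16.07 CPM, next 9.395). *Zbp1* had such a library in every group, at 5.794 CPM in carbon-ion control replicate 5, 26.46 in carbon-ion irradiated replicate 8, 11.6 in photon-control replicate 3 and 16.24 in photon-irradiated replicate 4. *Txnip* was high in photon-control replicate 2 (305.5 CPM). *Il1b* was high in photon-control replicate 8 (56.85 CPM), *Il18r1* in photon-irradiated replicate 7 (11.67 CPM) and *Il1rn* in carbon-ion irradiated replicate 2 (120.6 CPM). Low values were those of *Il1rn* in carbon-ion control replicate 5 (38.25 CPM) and *Tnf* in carbon-ion control replicate 6 (3.056 CPM). The *Gsdme* effect differed between the arms by -0.541 (log2), with all 8 carbon-ion irradiated libraries below and all 8 photon-irradiated libraries above their control median, a difference by which the gene was chosen and for which no p-value is given.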

How the results depend on the processing

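No paired analysis was possible because the replicate numbers follow the order of deposition only. Of 495 values of named genes under alternatives other than leaving a library out, 491 kept their direction. The 4 that reversed were near 0, *Il18* after carbon ions at -0.00649 (upper-quartile scaling) and -0.013 (M-titled libraries alone), *Ripk3* between the irradiated groups at -0.037 (upper-quartile scaling) and *Gsdmd* between controls at -0.000228 (title letter). Of 1296 values with a library left out, 10 reversed, and the ranges were -0.03 to 0.276 for *Ripk3* and -0.138 to 0.151 for *Il18* after carbon ions, -0.184 to 0.117 for *Ripk3* between the irradiated groups and -0.108 to 0.617 for *Zbp1* after photons. *Gsdme* stayed between -0.219 and -0.145 after carbon ions and between 0.33 and 0.382 after photons with any 1 library left out.

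Members called, apart from *Gsdme*, went from 0 to 1 with DESeq2 after photons (*Casp1*), between the controls (*Ripk3*) and between the irradiated groups (*Casp1*), and to 1 (*Ripk3*) with only the control groups fitted, and ranged from 0 to 1 after photons and between the irradiated groups with a library left out. The pathway genes called after carbon ions went from 0 to 2 with DESeq2. After photons the count of 5 became 9 with DESeq2, 2 with no filter, 3 with only the groups compared and 3 with M-titled libraries alone, and between 0 and 9 with a library left out (0 without photon-control replicate 3, 2 without photon-control replicates 1, 5 or 8 or photon-irradiated replicates 1, 6 or 7, 3 without photon-control replicates 6 or 7 or photon-irradiated replicates 2 or 5, and 9 without photon-control replicate 2). Between the controls 9 became 4 with no filter, 5 with the title letter as a term and 4 with M-titled libraries alone, and 4 to 9 with a library left out (4 without photon-control replicate 3 and 5 without carbon-ion control replicates 2 or 3 or photon-control replicates 6 or 7). Between the irradiated groups 5 became 8 with DESeq2, 3 with upper-quartile scaling, 2 with no filter, 1 with only the groups compared and 2 with the title letter, and 2 to 9 with a library left out (2 without carbon-ion irradiated replicate 5 or photon-irradiated replicates 1 or 3, 3 without carbon-ion irradiated replicate 6 or photon-irradiated replicate 7, 8 without carbon-ion irradiated replicate 1 and 9 without replicate 3). The calls over all genes moved too, after photons from 781 to 1550 with DESeq2, 431 with no filter, 852 with only the groups compared and 664 with M-titled libraries alone, between the controls from 1871 to 1383 with no filter, 1081 with the title letter and 973 with M-titled libraries alone, and between the irradiated groups from 1041 to 1989 with DESeq2, 1056 with upper-quartile scaling, 319 with no filter, 57 with only the groups compared and 502 with the title letter. With a library left out they ranged from 239 (photon-control replicate 3) to 1656 (photon-control replicate 2) after photons, from 1178 (photon-control replicate 3) to 2180 (carbon-ion control replicate 5) between the controls, with 1349 and 1573 without carbon-ion control replicates 2 and 3 and 1241 and 1588 without photon-control replicates 6 and 7, and from 108 (photon-irradiated replicate 3) to 2159 (carbon-ion irradiated replicate 3) between the irradiated groups. The cause of these moves was not tested. Differences of the size seen in *Casp8* or *Mlkl* are below the fold sizes simulated here.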
